A study of Mus musculus with 4 samples.

Results

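Genes of the mitotic machinery were followed in activated mouse CD4+ T cells with and without Pdk4, the gene of a pyruvate dehydrogenase kinase, which holds back entry of pyruvate into the mitochondrial citrate cycle. Membership was set by gene symbol, with no measured value in the rule, though the set was proposed with earlier results of these data known. It took every symbol that begins with Kif and a digit, every symbol that begins with Cenp and a letter, and 19 listed mitotic genes. This gave 78 of 23238 symbols, of which 40 were Kif symbols and 19 were Cenp symbols. The symbol rule is wider than the mitotic machinery. It also took kinesins that carry cargo in non-dividing cells, the kinesin-binding protein gene Kif1bp, the pseudogene Kif4-ps and the transcript Kif16bos. The kinesins with a Kif symbol were therefore split into 11 mitotic and 26 transport and other kinesins. The second group also holds Kif2a and Kif2b, relatives of the mitotic Kif2c, so it is not made of transport motors alone. Cenpe, also a kinesin, was grouped with the outer kinetochore.

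There were 2 libraries of PDK4 KO cells and 2 of WT cells, on the C57BL/6j strain. In both genotypes, naive CD4+ T cells of lymph nodes and spleen were isolated by MACS, a magnetic bead sort, and stimulated for 48 hours in culture with CD3, CD28 and IL-2. The labels do not give the Pdk4 allele, the tissues in which it is missing, the age or sex of the mice, or whether replicates were separate mice, so each p-value is set against a spread of libraries that could be technical alone. RNA was counted at transcript 3' ends, so levels are given in CPM, counts scaled to a common library size with trimmed mean of M-values (TMM) factors, without division by gene length. Total counts were 9739624 and 9104413 in KO replicates 1 and 2, against 8837810 and 9575879 in WT replicates 1 and 2. Pdk4 itself had 0 and 2 counts in KO libraries and 1 and 0 counts in WT libraries, at or under a floor of 3 counts (0.308 to 0.339 CPM per library), so the genotype could not be checked from it.

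Markers of other cells differed between the genotypes in these libraries. The summed level of 12 B cell markers was 19.7 and 20.6 CPM in KO libraries, against 101 and 105 CPM in WT libraries, and 8 of the 10 tested markers fell. Of the defining B cell genes, Cd22 had 0 counts in both KO libraries and Pax5 had 0 counts in all libraries. The summed level of 11 CD8 T and NK cell markers was 269 and 253 CPM in KO libraries, against 420.0 and 435 CPM in WT libraries, with 1 of 9 tested markers past the test. That marker was Gzma, a cytotoxic granule protease also made by T cells, which fell to 76.2 and 51.3 CPM in KO libraries, against 219.6 and 219.2 CPM in WT libraries. Without Gzma the sum was 193 and 202 CPM in KO libraries, against 200.3 and 216 CPM in WT libraries. Nkg7 made up most of it, at 119 and 125 CPM in KO libraries and 111 and 134 CPM in WT libraries. Of the 9 tested markers, 4 were lower in KO without overlap, Gzma included, and 0 were higher. Over all tested genes, 21.9% were lower in this way. Cd8a had 0.409 and 0.544 CPM in KO libraries, against 2.62 and 2.96 CPM in WT libraries. Klrb1c had 1.13 and 0.762 CPM in KO libraries, against 3.53 and 4.86 CPM in WT libraries. Neither passed the test, and Cd8b1 overlapped. The sum of 10 myeloid markers was 12.1 and 21.0 CPM in KO libraries against 34.9 and 30.7 CPM in WT libraries, with 1 of 4 past the test. Markers of CD4 T cells were present in all libraries, with sums of 2004 and 2034 CPM in KO libraries and 1979 and 2032 CPM in WT libraries, and 1 of 7 rose. Erythroid markers differed more within than between genotypes, at 66.9 and 188 CPM in KO libraries and 168 and 35.1 CPM in WT libraries.

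In mitosis, cyclin-dependent kinase 1 bound to its cyclins drives entry, condensins and topoisomerase II compact the chromosomes, and CENP-A nucleosomes mark the centromere on which the kinetochore is built. Mitotic kinesins are motors that slide, cross-link or shorten microtubules to form the spindle, move chromosomes and complete division. Many of these genes are switched on together in late S and G2 phase through a promoter element called the cell cycle genes homology region (CHR), which the DREAM complex and B-MYB with FOXM1 recognise, often beside CCAAT boxes bound by NF-Y.

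The following promoters show that element in 4 mitotic members and its lack in a transport kinesin. Each is the 200 bases before the RefSeq start site (build GRCm38.p6), written 5' to 3' on the gene's strand, with capitals for the CHR core (TTTGAA, or TTCAAA on the other strand) and the CCAAT box (CCAAT, or ATTGG on the other strand). The gene Mki67 encodes Ki-67, Top2a topoisomerase II alpha, Cdk1 the entry kinase, Kif11 the spindle motor Eg5, and Kif3b a subunit of the kinesin-2 transport motor.
Mki67, chr7:135716380-135716579, minus strand: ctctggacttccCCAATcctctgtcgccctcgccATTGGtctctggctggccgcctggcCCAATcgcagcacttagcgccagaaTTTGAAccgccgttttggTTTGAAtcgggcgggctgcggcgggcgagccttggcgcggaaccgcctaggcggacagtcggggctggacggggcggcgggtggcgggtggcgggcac
Top2a, chr11:99024190-99024389, minus strand: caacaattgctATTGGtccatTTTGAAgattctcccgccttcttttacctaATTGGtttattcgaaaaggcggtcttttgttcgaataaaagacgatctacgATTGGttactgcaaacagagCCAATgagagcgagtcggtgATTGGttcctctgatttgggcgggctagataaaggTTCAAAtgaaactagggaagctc
Cdk1, chr10:69352913-69353112, minus strand: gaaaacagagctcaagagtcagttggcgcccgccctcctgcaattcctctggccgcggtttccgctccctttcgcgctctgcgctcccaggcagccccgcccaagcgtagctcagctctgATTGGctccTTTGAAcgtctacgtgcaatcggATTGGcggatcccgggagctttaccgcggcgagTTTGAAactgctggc
Kif11, chr19:37376182-37376381, plus strand: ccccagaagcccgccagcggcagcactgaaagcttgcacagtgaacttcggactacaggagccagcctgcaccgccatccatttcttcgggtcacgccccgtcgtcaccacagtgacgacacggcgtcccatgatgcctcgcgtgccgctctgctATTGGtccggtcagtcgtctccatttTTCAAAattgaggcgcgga
Kif3b, chr2:153291216-153291415, plus strand: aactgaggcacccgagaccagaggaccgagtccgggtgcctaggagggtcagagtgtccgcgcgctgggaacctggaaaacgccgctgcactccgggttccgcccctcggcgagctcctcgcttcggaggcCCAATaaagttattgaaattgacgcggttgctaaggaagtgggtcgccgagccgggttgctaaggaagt
The CHR core occurred 2 times in each of the Mki67, Top2a and Cdk1 stretches, 1 time in that of Kif11 and 0 times in that of Kif3b. The CCAAT box occurred 3, 5, 2, 1 and 1 times in these stretches in the same order.

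The CHR core was more frequent in the kinesins grouped as mitotic than in the transport and other kinesins. In the whole RefSeq windows, which run from 250 bases before the start site to 50 after it, 66 of the 78 members had a promoter, and a gene with several windows was counted once if any of them held the letters on either strand. The core was present in 9 of 10 mitotic kinesins (90.0%) and in 3 of 21 transport and other kinesins (14.3%), and in 0 of 12 among the transport and other kinesins that were tested. Over all 27025 genes of the table the share was 20.2%, and over tested genes 14.1%. Mitotic kinases had it in 3 of 3 promoters, chromosome structure genes in 2 of 2, outer kinetochore genes in 3 of 6 and mitotic cyclins in 1 of 2. It was found in 1 of 4 spindle, passenger and anaphase genes (25.0%) and in 0 of the other 3 Cenp genes. CENP-A with the inner kinetochore proteins, called the inner centromere group here, had it in 4 of 14 (28.6%). The CCAAT box was found in 41.1% of all genes and in 11 of 14 (78.6%) of the inner centromere group, 6 of 10 mitotic kinesins, 1 of 4 spindle, passenger and anaphase genes and 0 of the other 3 Cenp genes. A variant core, TTTAAA, reads the same on both strands. It was found in 2 of 10 mitotic kinesins, 0 of 21 transport and other kinesins and 14.9% of all genes. Transport kinesins Kif5b and Kif21b had no entry. Matches of such short letters describe the window and do not show a bound site.

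**Figure D1:**
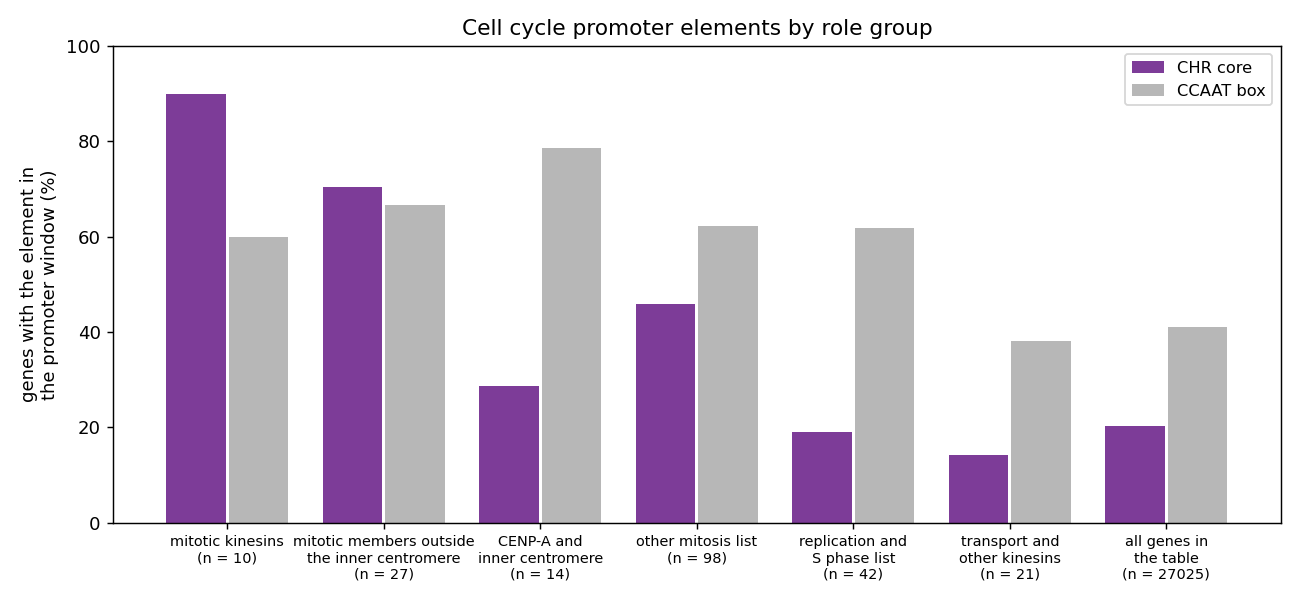
Share of genes (vertical axis, %) whose RefSeq promoter window holds the CHR core (purple) or a CCAAT box (grey), for 7 sets of genes on the horizontal axis, each with its number of genes. The CHR core ranges from 90.0% of mitotic kinesins to 14.3% of transport and other kinesins, with all genes at 20.2%.

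Of the 78 members, 66 passed the filter on low counts and were tested. No count was found in any library for 9 kinesins (Kif1a, Kif2b, Kif6, Kif12, Kif19a, Kif21a, Kif26a, Kif26b and Kif27), several of which are known for roles in neurons, cilia or testis. The other 3 untested members had 1 count (Kif17), 2 counts (Kif16bos) or 5 counts (Kif4-ps) in a single library and 0 in the rest, so these were not tested. The 11 mitotic kinesins were all tested, as were all 19 Cenp genes and all 19 listed genes.

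Levels of the tested members spanned from 1.23 CPM for Kif5c to 962 CPM for Top2a, as the mean of the 4 libraries. Top2a, which untangles sister chromatids, ranked 102 among the 11464 tested genes, and the condensin subunit Smc4 ranked 160. The most abundant kinesin was not a mitotic one but Kif5b, a heavy chain of conventional kinesin, with a mean level of 335 CPM in KO libraries and 335 CPM in WT libraries, followed by Kif3b. Its neuronal paralogs Kif5a and Kif5c had mean levels under 4 CPM in every library. The 11 mitotic kinesins with a Kif symbol ran in mean level from Kif15, a spindle motor that can stand in for Eg5, at 90.0 CPM, to the chromosome alignment motor Kif18a at 7.03 CPM. Of the 10 pairs of neighbours in that order, 7 overlapped in their library values and 3 did not (Kif20b above Kif23, Kif20a above Kif2c, and Kif4 above Kif18b). Cenpe, a kinesin grouped here with the outer kinetochore, was left out of that order and had a higher mean level of 140 CPM.

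**Figure D2:**
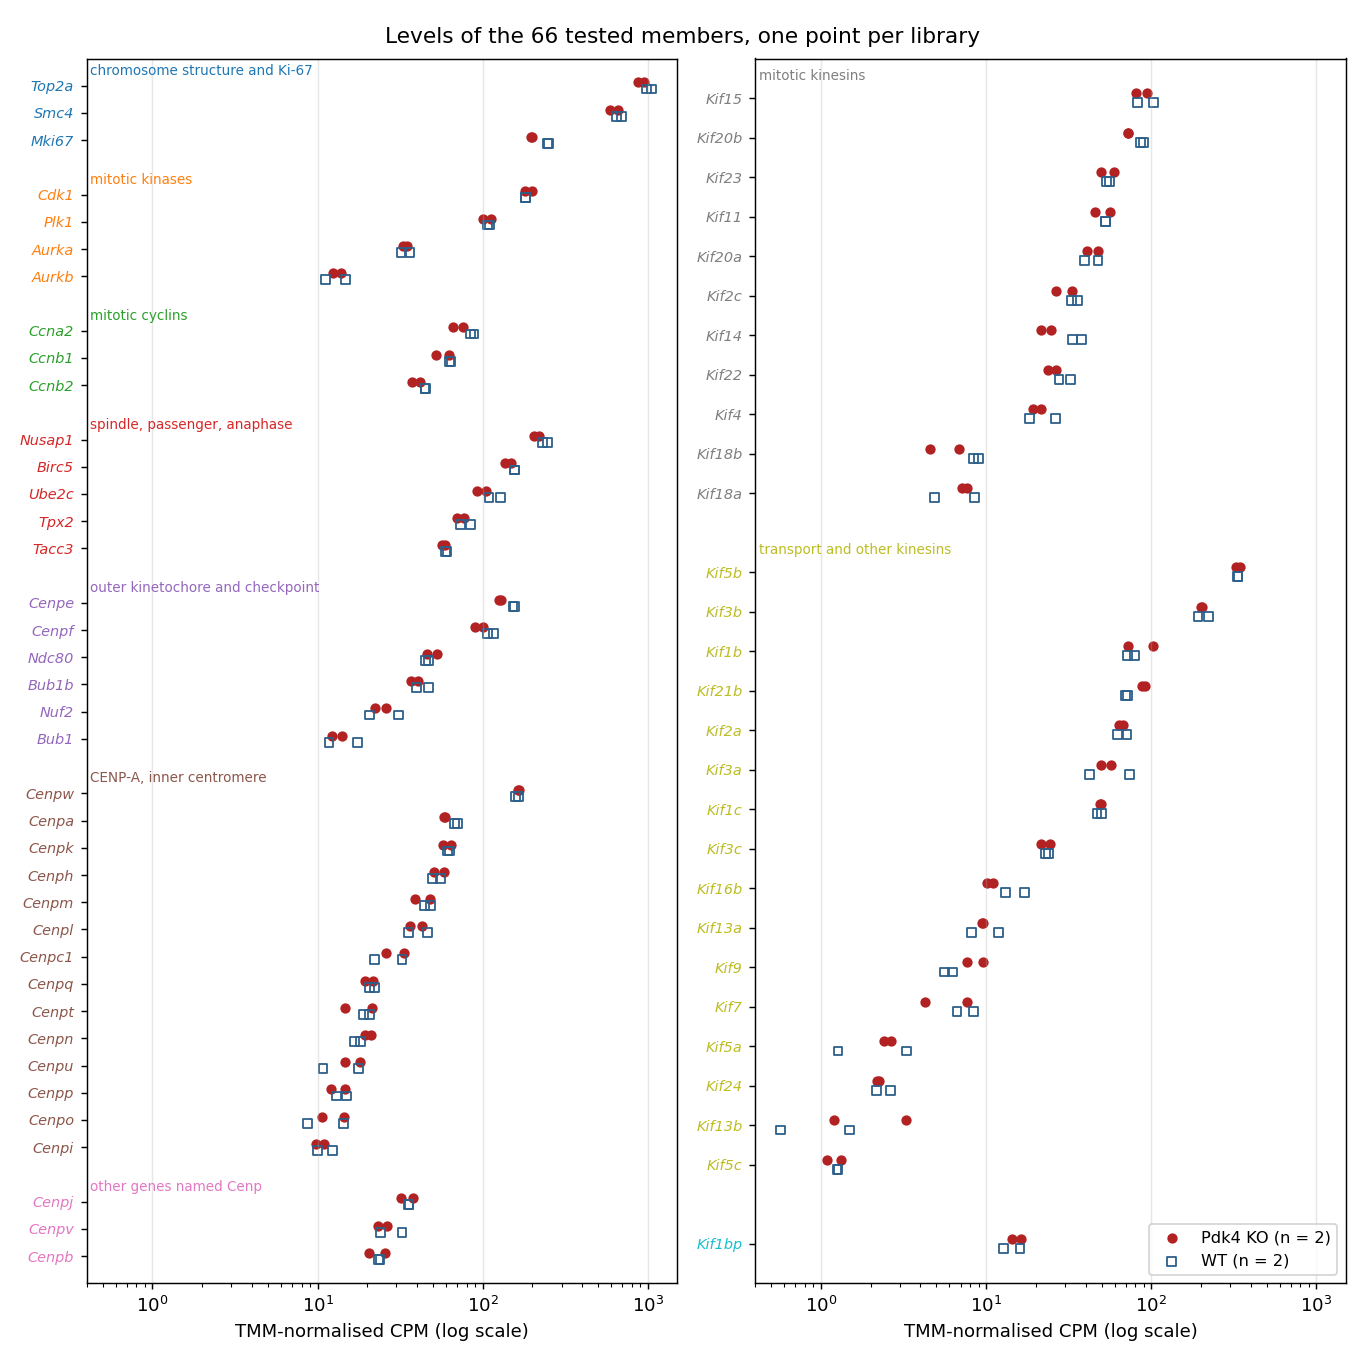
TMM-normalised CPM (horizontal axis, log scale) of the 66 tested members, grouped by role, with 1 point per library: filled red circles for KO and open blue squares for WT (2 libraries each). Circles and squares lie on or beside each other for most genes. The genotypes do not overlap in 17 members with KO lower and 3 with KO higher. Among these are Mki67, Kif14, Kif21b, Cenpe, Kif20b and Cenpa. Over all tested genes, 21.9% were lower and 21.5% higher without overlap.

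In the comparison of KO with WT cells, 1 of the 66 tested members changed. Mki67 fell and 65 members did not pass the test, with 0 rises. In the same test 2.66% of all tested genes were called, 1.45% as higher and 1.21% as lower in KO, so 1 of 66 (1.52%) was near the background share. The test was edgeR's quasi-likelihood F test with Benjamini-Hochberg adjustment over 11464 genes, with a call at an adjusted p under 0.05. At an unadjusted p under 0.05, 8 of the 66 members passed, 7 of them lower in KO. Over all tested genes 1545 (13.5%) passed, 766 of them lower in KO. DESeq2 and limma-voom each called 0 rises and 1 fall. The KO and WT libraries did not overlap in 17 members in the direction lower in KO and in 3 in the direction higher in KO, where 43.4% of all tested genes did not overlap, 21.9% lower and 21.5% higher. In bulk RNA, fewer cells of a type and less RNA per cell cannot be told apart.

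Mki67 (chromosome 7, 135689784 to 135716361, GRCm38), whose protein coats mitotic chromosomes and serves as the standard marker of dividing cells, had 200.1 and 196 CPM in KO libraries, against 251 and 248 CPM in WT libraries. Both KO libraries were lower than both WT libraries, and the libraries of each genotype lay close together. The mean was 198 ± 2.64 CPM in KO and 249.6 ± 2.56 CPM in WT (SD, n = 2 each). The log2 fold change was -0.33 (95% interval -0.50 to -0.16, SE 0.0835), with adjusted p = 0.0204 by edgeR. The call was lost without any 1 of the 4 libraries, with adjusted p between 0.0748 and 0.153 and log2 fold changes between -0.35 and -0.32. The B cell and myeloid marker sums and Gzma, given above, were lower in the same libraries, and their part in this result was not tested.

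The other 2 genes of chromosome structure did not pass the test. Top2a had 949 and 866 CPM in KO libraries, against 977 and 1056 CPM in WT libraries, with a log2 fold change of -0.16 (95% interval -0.30 to -0.03, adjusted p = 0.235 by edgeR). The genotypes did not overlap, but KO replicate 1 and WT replicate 1 lay closer to each other than the libraries of either genotype did. Smc4 had 663 and 591 CPM in KO libraries, against 648 and 693 CPM in WT libraries, and the genotypes overlapped (log2 fold change -0.10, 95% interval -0.24 to 0.05).

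No difference was detectable in the 4 mitotic kinases at this depth. Cdk1, which triggers entry into mitosis, had 199.6 and 179 CPM in KO libraries, against 183 and 182 CPM in WT libraries (log2 fold change 0.06, 95% interval -0.13 to 0.24). Plk1, which acts at centrosomes, kinetochores and the midzone, had 113 and 100.1 CPM in KO libraries, against 107 and 109 CPM in WT libraries (-0.02, -0.24 to 0.20). In both genes a KO library was the highest and the other KO library the lowest of the 4. Aurka, the kinase of spindle poles, had 33.0 and 34.7 CPM in KO libraries, against 32.0 and 36.3 CPM in WT libraries (-0.01, -0.35 to 0.33). Aurkb, the kinase of the chromosomal passenger complex, had 12.4 and 13.8 CPM in KO libraries, against 14.8 and 11.2 CPM in WT libraries (0.01, -0.53 to 0.55). All 4 intervals stayed within a change of 1.5-fold either way, and the signs of Cdk1, Plk1, Aurka and Aurkb turned round under at least 1 alternative setting. The sum of the 4 kinases was 357 and 328 CPM in KO libraries and 336 and 338 CPM in WT libraries.

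The mitotic cyclins, the partners of Cdk1, were lower in both KO libraries than in both WT libraries in 3 of 3 genes, and 0 of 3 passed the test. Over all tested genes, 21.9% were lower in KO without overlap. Ccna2 (cyclin A2) had 76.0 and 66.5 CPM in KO libraries, against 88.6 and 84.5 CPM in WT libraries, a log2 fold change of -0.28 (95% interval -0.52 to -0.04, adjusted p = 0.277 by edgeR). The last exons of Ccna2 meet those of Exosc9 on the opposite strand, and since the use of strand in counting is not given in the sources used here, its value is uncertain. Ccnb1 (cyclin B1) had 62.9 and 52.5 CPM in KO libraries, against 64.3 and 63.2 CPM in WT libraries (-0.14, -0.41 to 0.13). Ccnb2 (cyclin B2) had 41.8 and 37.4 CPM in KO libraries, against 44.7 and 45.1 CPM in WT libraries (-0.18, -0.49 to 0.13). For cyclin B1 and B2 the gap between KO replicate 1 and the lower WT library was smaller than the gap between the KO libraries.

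The spindle, passenger and anaphase proteins all had negative log2 fold changes, and 0 of 5 passed the test. Nusap1, a microtubule bundler at chromosomes, had 220.4 and 203 CPM in KO libraries, against 247 and 229 CPM in WT libraries (log2 fold change -0.17, 95% interval -0.34 to 0.01). Birc5 (survivin), the passenger protein that brings Aurora B to centromeres, had 147 and 135 CPM in KO libraries, against 155 and 156 CPM in WT libraries (-0.14, -0.33 to 0.06). Ube2c, the ubiquitin-conjugating enzyme of the anaphase-promoting complex, had 104 and 92.5 CPM in KO libraries, against 109 and 127 CPM in WT libraries (-0.27, -0.49 to -0.04, adjusted p = 0.256 by edgeR). KO replicate 2 was the lowest library in all 5 genes of the group, Tpx2 and Tacc3 included. The libraries did not overlap in 4 of the 5 genes, with KO lower, where 21.9% of all tested genes were lower in KO without overlap. They overlapped in Tpx2, which activates Aurora A on spindle microtubules.

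At the outer kinetochore and checkpoint, 0 of 6 genes passed the test, and both KO libraries lay below both WT libraries in 2, Cenpe and Cenpf. The same was true of 21.9% of all tested genes. Cenpe, a kinesin that carries chromosomes to the spindle equator, had 128 and 125 CPM in KO libraries, against 152 and 155 CPM in WT libraries (log2 fold change -0.28, 95% interval -0.47 to -0.09, adjusted p = 0.128 by edgeR). Its libraries were close within each genotype and separate between them. Cenpf, a corona protein, had 90.1 and 101 CPM in KO libraries, against 116 and 106 CPM in WT libraries (-0.22, -0.44 to 0.00). Ndc80, which grips microtubules, had 52.8 and 46.3 CPM in KO libraries, against 44.9 and 46.8 CPM in WT libraries, and its partner Nuf2 25.8 and 22.2 CPM in KO libraries against 30.8 and 20.6 CPM in WT libraries, with overlap in both. The checkpoint kinase gene Bub1 had 12.3 and 14.1 CPM in KO libraries, against 17.5 and 11.7 CPM in WT libraries (-0.14, -0.68 to 0.39). Bub1b, which encodes the checkpoint protein BubR1, had 40.8 and 36.7 CPM in KO libraries, against 46.9 and 39.5 CPM in WT libraries (-0.16, -0.47 to 0.16).

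The inner centromere group had close sums in all libraries. It holds the centromeric histone gene Cenpa and 13 genes of the constitutive centromere-associated network, the inner layer of the kinetochore. Inner centromere is used here only as the name of this group. The sum of the group was 564 and 561 CPM in KO libraries, against 574 and 564 CPM in WT libraries. Of its 14 members 0 passed, 6 had a positive and 8 a negative log2 fold change, and the median was -0.04. Cenpw, a histone-fold subunit and the most abundant of them, had 164 and 165 CPM in KO libraries, against 164 and 158 CPM in WT libraries (log2 fold change 0.03, 95% interval -0.16 to 0.21). Cenpa had 58.6 and 59.2 CPM in KO libraries, against 70.2 and 67.8 CPM in WT libraries, and was the only one of the group whose KO libraries both lay below both WT libraries (-0.23, -0.48 to 0.03, adjusted p = 0.450 by edgeR). Cenpn, which binds CENP-A nucleosomes, was the only one whose KO libraries both lay above, with 21.2 and 19.3 CPM in KO libraries against 16.7 and 18.2 CPM in WT libraries (0.21, -0.24 to 0.66). The other 3 Cenp genes, Cenpb, Cenpj (known for centriole growth) and Cenpv, had 0 calls. Cenpj had 37.9 and 31.8 CPM in KO libraries and 35.5 and 35.7 CPM in WT libraries, and Cenpv had 26.2 and 23.1 CPM in KO libraries and 32.4 and 24.1 CPM in WT libraries.

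The mitotic kinesins held the member next to the threshold. Kif14 (chromosome 1, 136466343 to 136531511, GRCm38), a motor needed to complete cytokinesis, had 24.8 and 21.4 CPM in KO libraries, against 33.4 and 37.7 CPM in WT libraries. Both KO libraries were lower than both WT libraries, and the gap was larger than the gaps within each genotype. Its log2 fold change of -0.62 (SE 0.181, 95% interval -0.99 to -0.25) was the most negative of the 66, with adjusted p = 0.0583 by edgeR. It passed with no filter on low counts (adjusted p = 0.0436) and with a stricter filter (0.0395), and over all alternatives adjusted p ranged from 0.0395 to 0.364. Kif20b, another cytokinesis motor, had 72.6 and 71.9 CPM in KO libraries, against 89.7 and 86.2 CPM in WT libraries (-0.28, -0.52 to -0.05, adjusted p = 0.252 by edgeR).

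The other mitotic kinesins did not pass the test. Kif15 had 94.2 and 80.5 CPM in KO libraries, against 103 and 82.1 CPM in WT libraries. Kif11 had 56.2 and 45.7 CPM in KO libraries, against 53.0 and 53.1 CPM in WT libraries, and Kif23, the motor of the centralspindlin complex, had 59.3 and 49.8 CPM in KO libraries against 55.9 and 53.8 CPM in WT libraries. In Kif11 and Kif23 both WT libraries lay between the KO libraries. The chromokinesin Kif22 and the plus-end depolymerising kinesin Kif18b did not overlap, at 26.5 and 23.7 CPM in KO libraries against 27.6 and 32.6 CPM in WT libraries for Kif22, and 6.85 and 4.57 CPM in KO libraries against 8.99 and 8.35 CPM in WT libraries for Kif18b, whose interval ran from -1.33 to 0.14. For Kif22, KO replicate 1 and WT replicate 1 lay closer to each other than the libraries of either genotype did. Both KO libraries lay below both WT libraries in 4 of the 11 mitotic kinesins and above in 0. Over all tested genes, 21.9% were lower and 21.5% higher in this way. Over the 11 mitotic kinesins, 0 passed and 9 had a negative log2 fold change. Their sum was 449 and 392 CPM in KO libraries, against 478 and 461 CPM in WT libraries.

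Transport and other kinesins were spread around 0. Of 16 tested, 0 passed, 7 had a positive and 9 a negative log2 fold change, with a median of -0.03. Kif21b, a motor that limits microtubule growth and is known in T cells for positioning the centrosome at the synapse, had 91.0 and 88.3 CPM in KO libraries, against 69.5 and 71.8 CPM in WT libraries. Its KO libraries were both higher, with a log2 fold change of 0.34 (SE 0.117, 95% interval 0.11 to 0.58, adjusted p = 0.128 by edgeR). Kif5b had 343 and 328 CPM in KO libraries, against 335 and 335 CPM in WT libraries, and its interval was -0.15 to 0.15, the third narrowest of the members. Kif3b had 200.0 and 203 CPM in KO libraries, against 192 and 223 CPM in WT libraries.

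At the low end the intervals were wide. Kif16b, an endosomal motor, had 10.1 and 11.0 CPM in KO libraries, against 13.1 and 17.0 CPM in WT libraries (log2 fold change -0.51, 95% interval -1.06 to 0.03). Kif13b had 3.27 and 1.20 CPM in KO libraries, against 0.569 and 1.48 CPM in WT libraries, and its log2 fold change of 1.11, the largest of the 66, had an interval of -0.53 to 2.75. Its genotypes overlapped. Kif1bp, whose protein binds kinesins but is no motor, had 14.4 and 16.3 CPM in KO libraries, against 16.0 and 12.7 CPM in WT libraries.

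**Figure D3:**
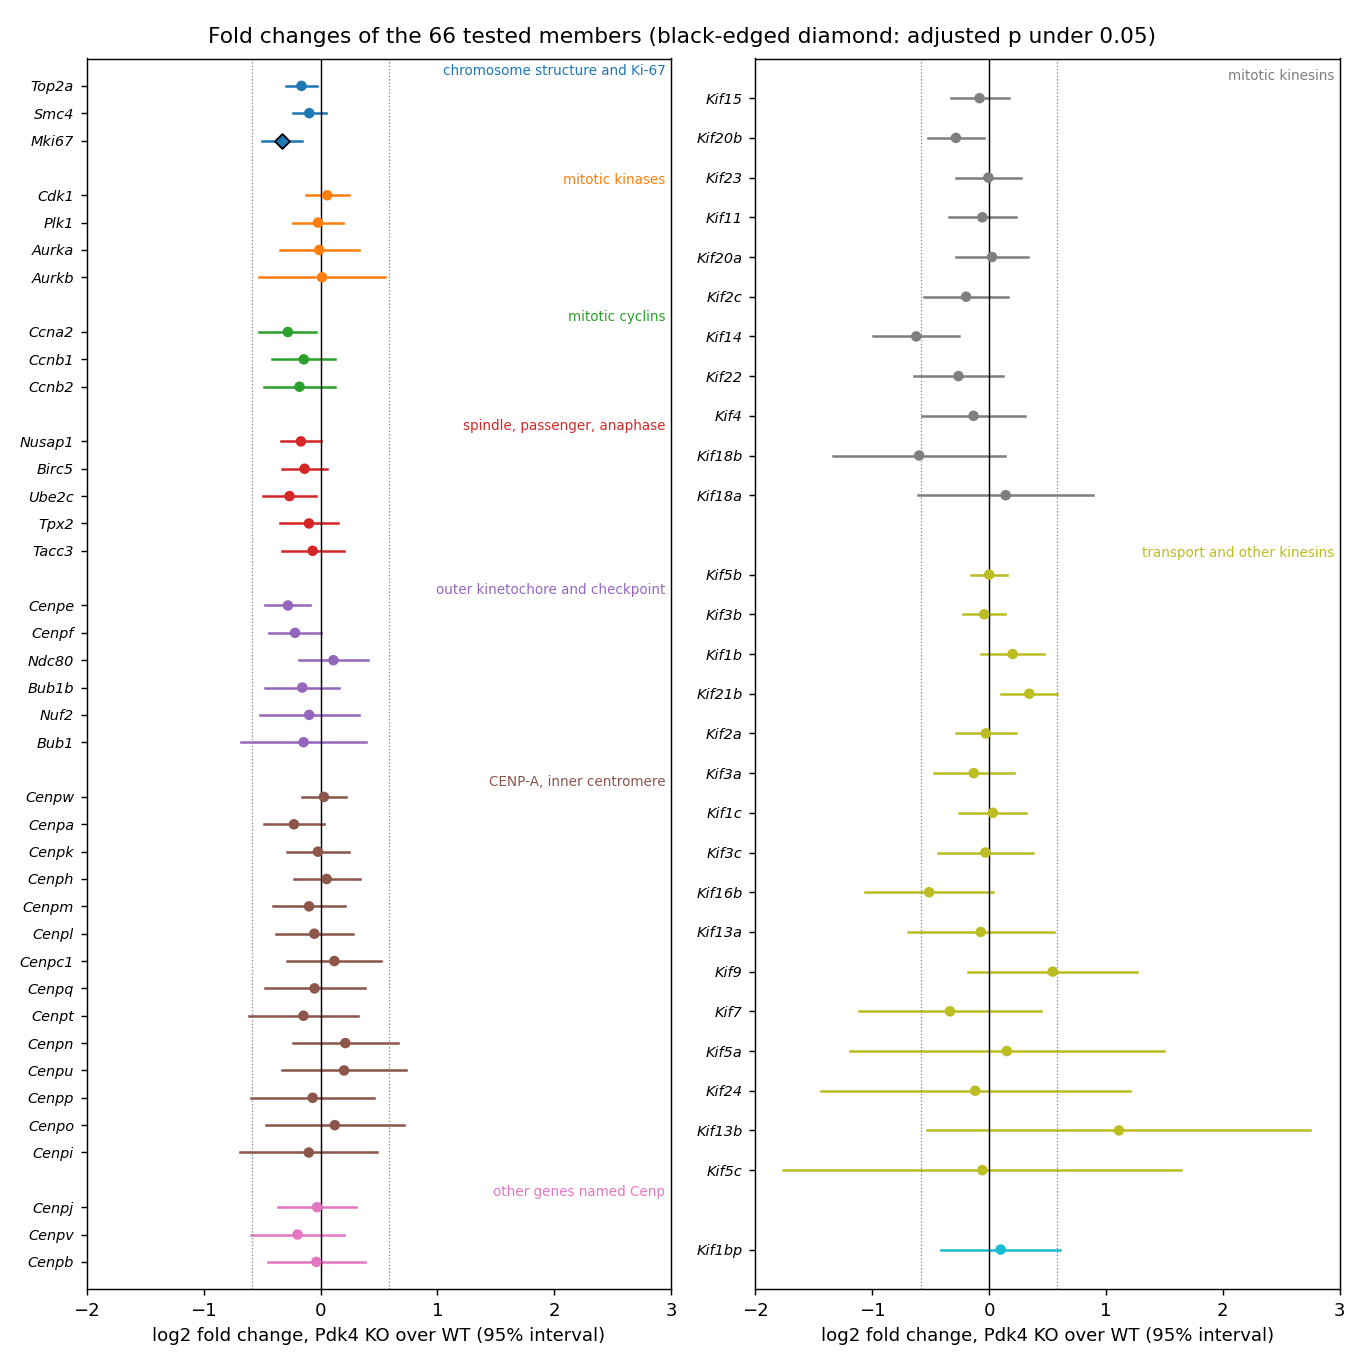
Log2 fold change of KO over WT (horizontal axis) with its 95% interval from edgeR for each of the 66 tested members, grouped by role, with dotted lines at 1.5-fold either way. Mki67 (black-edged diamond, -0.33) is the only member past an adjusted p of 0.05, most points of the mitotic groups lie left of 0, and the intervals widen towards the low kinesins.

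Most mitotic genes had a small negative log2 fold change. The transport and other kinesins, Kif1bp, Cenpb, Cenpj and Cenpv were left out, a grouping made after the values were seen. Of the 46 tested mitotic members, 35 (76.1%) had a negative log2 fold change, where 49.9% of all tested genes did. Their median was -0.10 and that of all genes 0.00. Both KO libraries lay below both WT libraries in 16 of the 46 and above in 1, where 21.9% and 21.5% of all tested genes did so. These genes are not independent of each other, and no test was made over the group.

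**Figure D4:**
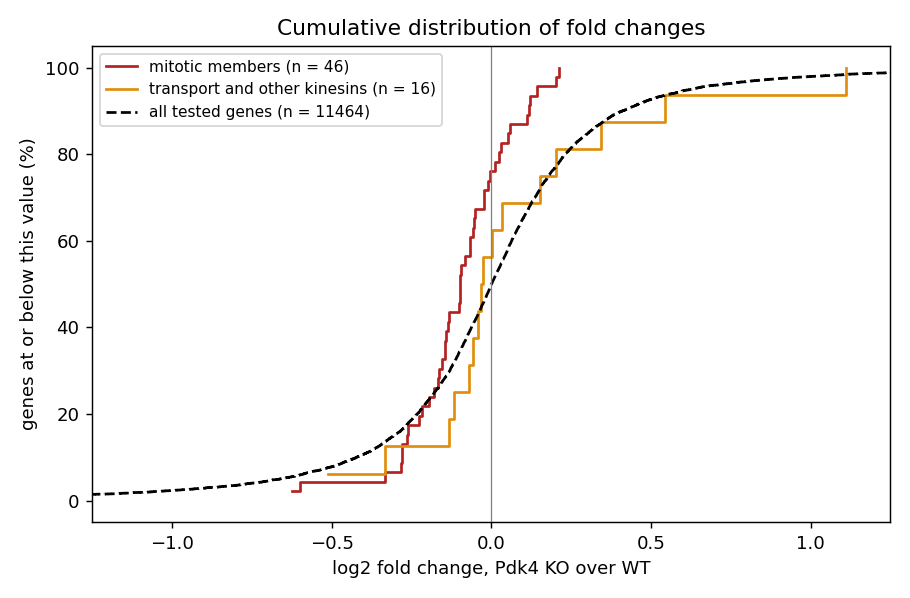
Share of genes (vertical axis, %) at or below each log2 fold change of KO over WT (horizontal axis), for 46 mitotic members (red), 16 transport and other kinesins (orange) and all 11464 tested genes (dashed). The red curve crosses 0 at 76.1%, the dashed one at 49.9%.

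The size of this shift differed between the KO libraries. KO replicate 2 had the lowest level of the 4 libraries in 26 of the 46 mitotic members (56.5%) and KO replicate 1 in 5, where KO replicate 2 was lowest in 23.8% of all tested genes. The 46 genes summed to 4322 and 3994 CPM in KO replicates 1 and 2, against 4514 and 4591 CPM in WT replicates 1 and 2. The gap between the KO libraries was larger than the gap between KO replicate 1 and WT replicate 1. Over the 66 tested members, 47 log2 fold changes were negative and 19 positive, against 36 and 30 without KO replicate 2 and 40 and 26 without WT replicate 1. Their median log2 fold change was -0.067, and it was -0.032 without KO replicate 2 and -0.133 without KO replicate 1. Between KO replicates 1 and 2 the marker sums were 19.7 and 20.6 CPM for B cells and 12.1 and 21.0 CPM for myeloid cells. Most of the myeloid gap came from a single gene, Cd68, at 0.409 and 6.53 CPM (4 and 60 counts). The erythroid sums were 66.9 and 188 CPM in the same libraries. The part of these markers in the shift was not tested.

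**Figure D5:**
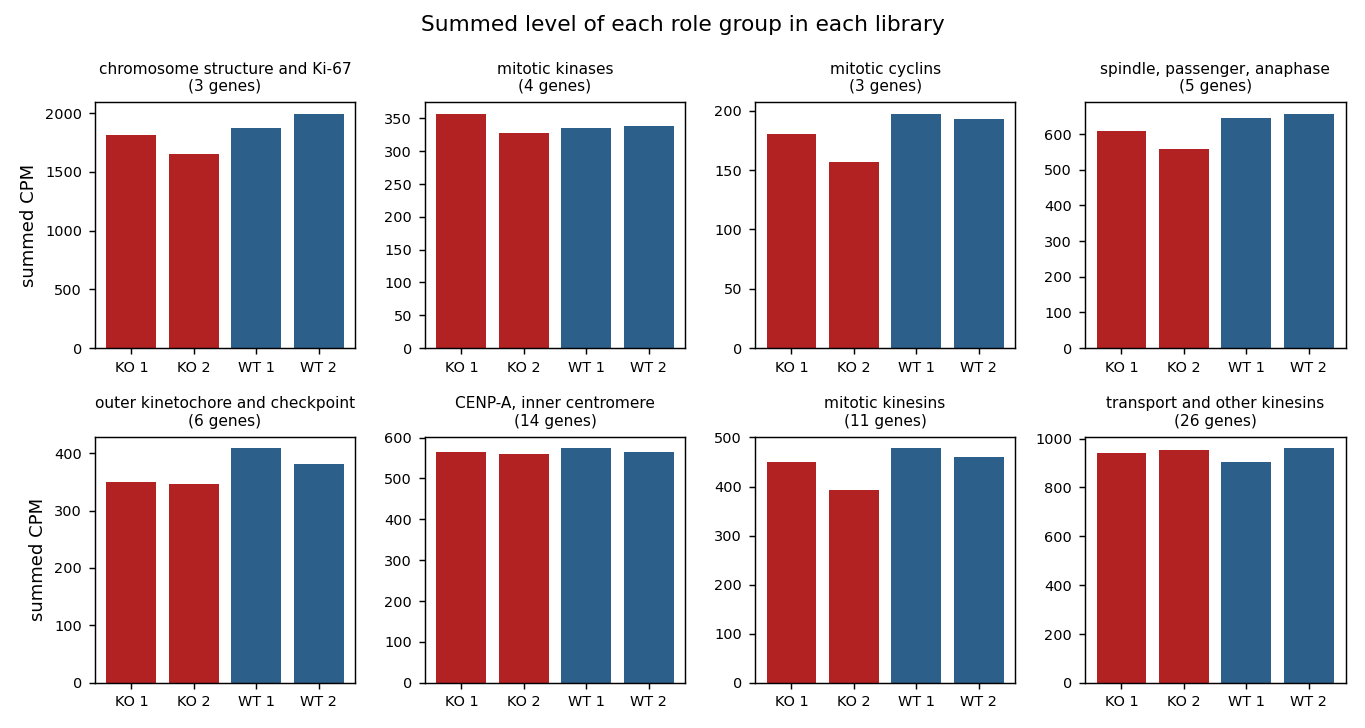
Summed TMM-normalised CPM (vertical axis, from 0) of each role group in each library, KO in red and WT in blue, with 1 bar per library and no error bar. The bar of KO replicate 2 is the lowest in 7 of the 8 groups shown, the exception being the transport and other kinesins, and the inner centromere bars are nearly level (564 and 561 CPM in KO, 574 and 564 CPM in WT).

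The precision of the counts bounds these differences. The 95% interval of the fold change lay within 1.5-fold either way for 45 of the 66 tested members, among them all 4 kinases, all 3 cyclins and 5 of the 6 outer kinetochore genes, and within 2-fold for 58. For all tested genes the share within 1.5-fold was 47.4%. The 21 members outside had mean levels from 1.23 CPM (Kif5c) to 29.3 CPM (Kif14).

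Genes of mitosis that the symbol rule did not take gave a similar count. Of 116 further mitosis genes, all tested, 0 rose, 1 fell and 115 did not pass, with a median log2 fold change of -0.07. Over all tested genes, 1.45% rose and 1.21% fell. Of the 116 genes, 40 had a positive and 76 a negative log2 fold change. The KO libraries lay above the WT libraries in 12 of them and below in 35. The shares over all tested genes were 21.5% above and 21.9% below. The further mitosis gene that fell was Cdc25b, a phosphatase that activates Cdk1 at mitotic entry. It had 36.0 and 29.8 CPM in KO libraries, against 53.9 and 52.6 CPM in WT libraries (log2 fold change -0.69, SE 0.153, with adjusted p = 0.00591 by edgeR), and was not called without KO replicate 2 (adjusted p = 0.117). Spc25, which joins Ndc80 and Nuf2 in the Ndc80 complex, had 71.6 and 76.6 CPM in KO libraries, against 94.5 and 95.4 CPM in WT libraries (adjusted p = 0.0980). Smc2, the partner of Smc4, had 319 and 271 CPM in KO libraries, against 345 and 355 CPM in WT libraries (adjusted p = 0.113), and Trip13, an ATPase that acts on the spindle checkpoint, had 38.7 and 46.3 CPM in KO libraries, against 34.1 and 26.7 CPM in WT libraries (log2 fold change 0.48, adjusted p = 0.147). Lin37 had 4.70 and 3.48 CPM in KO libraries, against 8.99 and 8.98 CPM in WT libraries. Its log2 fold change of -1.13 was the most negative of the 116 (adjusted p = 0.126 by edgeR). Spc25, Smc2, Trip13 and Lin37 were named after their values were seen. Of 52 genes of replication and S phase, 0 rose and 0 fell by edgeR, with a median of -0.02. Of these, 19 had a positive and 33 a negative log2 fold change. The KO libraries lay above the WT libraries in 6 of the 52 and below in 11, beside the same shares over all tested genes. An unadjusted p under 0.05 was found in 4 of the 52, where 13.5% of all tested genes had one.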

How the data were processed

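RNA of CD4+ T cells was read from 3' ends with the Lexogen QuantSeq kit from 500 ng of total RNA, per the labels' protocols. The authors deposited raw counts per gene symbol, 1 table per library. Bowtie2, edgeR and mm10 are named in the submitters' processing notes, with no role or version; how reads were assigned to genes, and whether strand was used, was not given in the sources used here. The tables had 23282 rows, counts of 35 repeated symbols were summed, and Rn45s, 11.6% to 12.3% of counts, was kept in the totals. KO was compared with WT by edgeR 4.0.16 in R 4.3.3 (filterByExpr, TMM factors 0.989 to 1.01, glmQLFit and a two-sided glmQLFTest, Benjamini-Hochberg over 11464 genes); the standard error is the log2 fold change over the square root of F. DESeq2 1.42.0 and limma-voom 3.58.1 were alternatives. Libraries of a genotype differed beyond sampling noise (chi-square per degree of freedom 5.45 in KO, 5.40 in WT). Replicate numbers were not used to pair libraries. With 2 libraries against 2, an exact permutation test of a single value cannot go below p = 0.333, so none is given. Named by rule were the called members, the 2 most abundant and the 2 of smallest p in each role group, the extremes, the kinases and the cyclins. Kif11, Kif23, Kif22, Kif18b, Ndc80, Nuf2 and Kif3a were named outside this rule, after their values were seen. Their values under alternative settings are not given. Members, role groups, further lists and rules were chosen with earlier results of these data known. Positions are from GENCODE vM21 (GRCm38), matched by symbol for 78 of 78 members; promoters are from RefSeq (GRCm38.p6). Exons on the opposite strand lie within 500 bases of the 3' end of 7 tested members (Ccna2, Cenpp, Cenpt, Kif20a, Kif2a, Kif3c and Kif7), whose values are uncertain. Intervals and floors cover the deposited reads, with no molecular identifiers named.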

Additional observations from a re-analysis of the deposited data

How the results depend on the processing

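The count of members that rose was 0 under all 13 alternatives. The count that fell was 1 with the other scalings, DESeq2, limma-voom and without Rn45s, 2 with no filter on low counts and 2 with the stricter filter (Mki67 and Kif14), and 0 to 0 when 1 library was left out. The further mitosis genes that fell numbered 0 to 1, and all genes numbered 92 to 148 higher and 75 to 145 lower, when 1 library was left out, with 92 and 78 without KO replicate 1 and 109 and 75 without WT replicate 2. The median log2 fold change of tested members was -0.133 to -0.032 when 1 library was left out and stayed negative in all 13 alternatives, between -0.079 and -0.046 with other scalings. With the replicate block, 1 member (Mki67) was called lower, and of all genes 142 were called higher and 118 lower; labels do not say that the numbers pair libraries, and deviations of same-numbered libraries were uncorrelated over genes (r = 0.00285), and the block changed no call of a member. Signs turned round in 12 of the members named by rule, with log2 fold changes between -0.20 (Cenpv) and 0.10 (Kif1bp). With library size only, Aurka was at 0.0113 and Plk1 at 0.0001. Kif5b was at -0.0109 with upper quartile scaling, -0.0009 with no filter and -0.0064 with the stricter filter. Leaving out 1 library moved Aurka between -0.0982 and 0.0817, Aurkb between -0.1772 and 0.2245, Bub1 between -0.4093 and 0.1702, Cdk1 between -0.0233 and 0.1315, Cenpj between -0.1647 and 0.0910, Cenpv between -0.3976 and 0.0318, Cenpw between -0.0004 and 0.0562, Kif15 between -0.2379 and 0.0897, Kif1bp between -0.0636 and 0.2764, Kif3b between -0.1477 and 0.0712, Kif5b between -0.0319 and 0.0315 and Plk1 between -0.1091 and 0.0590, and 0 of these passed the test in any setting. The cause was not tested. At the lowest depth, intervals were widest: that of Kif5c, at a mean level of 1.23 CPM, ran from -1.76 to 1.64.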

Other observations

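Some members differed between libraries of 1 genotype by more than between genotypes. Kif3a, a kinesin-2 subunit that pairs with Kif3b, had 49.6 and 57.0 CPM in KO libraries, against 42.4 and 74.1 CPM in WT libraries. Of the 66 tested members, 7 had a ratio above 1.5 between the libraries of a genotype, and the highest ratio was 2.73, in Kif13b. The median ratio was 1.12 between KO libraries and 1.10 between WT libraries.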
